A study of Rattus norvegicus with 4 samples.

Results

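The genes of the junctions between cells were followed in the kidney inner medulla of female and male rats: the claudins, the scaffold and MARVEL proteins of the tight junction, the cadherins and the connexins. Members were found by symbol in the deposited gene table, as names starting with Cldn or Cdh and a digit, with Tjp, Gja, Gjb, Gjc or Gjd, plus Ocln, Cgn, Marveld2 and Marveld3. This gave 70 of the table's 19594 distinct gene symbols, on 68 loci, since Cldn8 and Cldn17 share a row and so do Cldn22 and Cldn24. They were 22 claudins, 4 tight junction scaffolds, 3 MARVEL proteins, 23 cadherins and 18 connexins. The rule uses symbols alone.

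The female group was 8 Sprague Dawley rats in 2 RNA pools of 4, and the male group was 8 Sprague Dawley rats in 2 RNA pools of 4. All rats were 13 to 15 weeks old at purchase, were given chow with 0.49% NaCl from 14 to 16 weeks of age for 2 weeks, and had no other treatment. The series concerns sex differences in the response to dietary salt, and the comparison available is female against male inner medulla on this diet. Pooling leaves no value for a single rat, and the deposited table joins the pools of each sex, so that each gene has 1 level per sex with no SD or n. Levels are FPKM, fragments scaled by transcript length and library size, which allow levels of different genes to be set side by side. The libraries held 37630274 to 41945343 read pairs in the female pools and 34552171 to 36978021 in the male pools.

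Tight junctions seal the space between epithelial cells, and claudins set which ions pass through that seal, some as pores and some as barriers. Cadherins hold neighbouring cells together through adherens junctions, and connexins form the gap junction channels that let small molecules pass from cell to cell. In the inner medulla the collecting duct epithelium has to keep a concentrated urine apart from a concentrated interstitium, while the vasa recta and interstitial cells around it carry junction proteins of their own.

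The sexes differed at 3 junction loci, all higher in females: the connexins Gja1 and Gjb2 and the mesenchymal cadherin Cdh11. Claudins, tight junction scaffolds and MARVEL proteins had no call. A call is a q-value under 0.05 in the authors' deposited table, where q is adjusted over all tested loci. The authors tested 45 of the 68 member loci and 3 were called, or 6.67%, against a background of 2.34% of all 20307 tested loci. Towards females the background was 1.63%, and towards males, where no member was called, it was 0.719%. Before adjustment, 6 members were at p under 0.05 in the authors' deposited table, against a background of 9.77% of tested loci, and all 6 were higher in females. Of the members that were tested, 40 loci had a mean level of at least 1 FPKM, of which 22 were above 0 and 18 below 0 in log2 ratio of female to male. Their median log2 ratio was 0.06, beside -0.02 over the 16883 tested loci at that level with values in both sexes. A difference of 1.5-fold or more in either direction stood at 6 of these 40 loci, against a background of 13.7%.

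**Figure D1:**
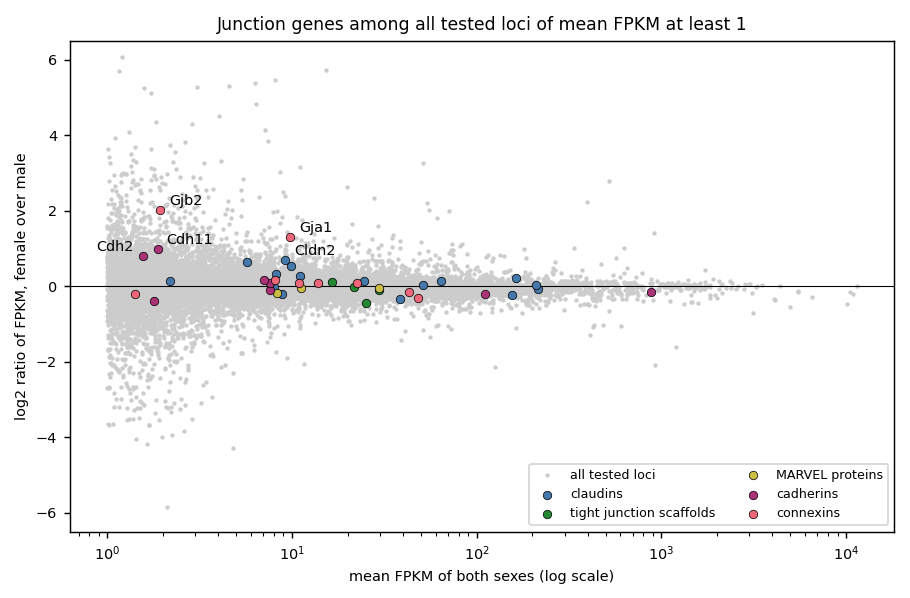
The log2 ratio of FPKM, female over male, is plotted against the mean FPKM of both sexes on a log scale, for every tested locus averaging 1 FPKM or more (grey; 5 loci lie beyond the plotted range) and for the 40 junction loci coloured by role. Gjb2 at 2.02, Gja1 at 1.30 and Cdh11 at 0.98 stand highest among the junction loci, with Cdh2 at 0.79 and Cldn2 at 0.69 next.

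Gja1 encodes connexin 43, the widespread connexin of smooth muscle, fibroblasts and other interstitial cells. Its locus (chromosome 20, 39612075 to 39624547, rn5) was at 13.9 FPKM in females and 5.65 FPKM in males. The female level was 2.46-fold the male level, and the authors' deposited table gave q = 0.00391. That is the smallest q that table holds, and it goes with its smallest p, 5e-05. Other called loci share it, Gjb2 and Cdh11 among them, so it does not rank Gja1 above them. Gja1 made up 8.67% of the summed connexin level in females and 3.50% in males. Gjb2 encodes connexin 26, an epithelial connexin best known for its part in hearing. Its locus (chromosome 15, 41217800 to 41230461, rn5) was at 3.11 FPKM in females and 0.769 FPKM in males, 4.05-fold apart; the authors' deposited table gave q = 0.00391. The size of that fold rests on a low male value: with a pseudocount of 1 FPKM the log2 ratio of Gjb2 was 1.22 in place of 2.02. The Gjb2 interval is listed for one more locus without a symbol, which was listed at 0 for both sexes.

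The bases just upstream of the RefSeq start site are shown for these connexins because they are the called members with a promoter entry in the RefSeq table used here. For Cdh11 no entry was used. Capitals mark matches to 5 motifs, searched on both strands. The GC box, bound by Sp1 family factors, was searched as GGGCGG. The E2 box, bound by Snail and Zeb repressors, was searched as CACCTG. The AP-1 site, bound by Fos and Jun, was searched as TGANTCA. The TATA box was searched as TATAAA, and part of a nuclear receptor site as AGGTCA. Each run is 250 bases, 5′ to 3′ along the gene, from RefSeq build GRCr8: chr20:36302314-36302563 on the plus strand for Gja1 and chr15:35381954-35382203 on the minus strand for Gjb2.
Gja1: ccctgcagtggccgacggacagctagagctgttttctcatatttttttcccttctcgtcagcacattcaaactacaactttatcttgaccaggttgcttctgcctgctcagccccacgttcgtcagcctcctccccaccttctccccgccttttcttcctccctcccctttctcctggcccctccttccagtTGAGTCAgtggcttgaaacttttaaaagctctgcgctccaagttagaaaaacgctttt
Gjb2: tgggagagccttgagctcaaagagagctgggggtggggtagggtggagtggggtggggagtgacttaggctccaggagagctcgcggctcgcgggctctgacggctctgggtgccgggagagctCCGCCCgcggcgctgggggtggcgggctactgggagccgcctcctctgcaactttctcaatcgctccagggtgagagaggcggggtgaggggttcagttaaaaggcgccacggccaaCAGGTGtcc
The Gja1 run has 51.2% G and C, equal to the median of all promoters in that table, and the Gjb2 run has 67.2%. Gja1 held 1 match, an AP-1 site whose first base is at position -58 counted from the start site. That motif stood in 6.34% of all 33469 promoter windows of the same length, and Gja1 was the 1 connexin of 11 with an entry that held it. Gjb2 held a GC box at -126, a motif found in 30.5% of all windows and in 5 of the 11 connexin windows. It also held an E2 box at -9, a motif found in 15.9% of all windows and in 5 of the 11 connexin windows. Neither run held the TATA box or the AGGTCA letters, which were in 12.9% and 14.1% of all windows. A match is a description of letters and not a measured binding site.

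The connexins that lead in level were not called. GJB1, connexin 32, a connexin of epithelia and of myelinating cells, was at 43.1 FPKM in females and 53.7 FPKM in males (the authors' deposited table gave q = 0.597). Gjb5 was at 40.6 FPKM in females and 45.2 FPKM in males. Gja4 lies on the same chromosome, 5, and the authors' deposited table gave q = 0.999 for Gjb5 and for Gja4. Gja4, connexin 37 of arterial endothelium, was at 14.3 FPKM in females and 13.5 FPKM in males. Gja5, connexin 40 of the same endothelium and of renin cells, was at 1.32 FPKM in females and 1.52 FPKM in males, on an interval that holds 4 more loci. GJC1, connexin 45, was at 8.54 FPKM in females and 7.57 FPKM in males, on an interval of 477 kb that holds 8 more loci. Gjb6, connexin 30, lies 17.6 kb from Gjb2. It was at 0.449 FPKM in females and 0.253 FPKM in males; the authors' deposited table gave q = 0.843. Gja3, 45.2 kb to the other side of Gjb2, was listed at 0 in females and in males. Summed over the family, connexins came to 160 FPKM in females and 161 FPKM in males.

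**Figure D2:**
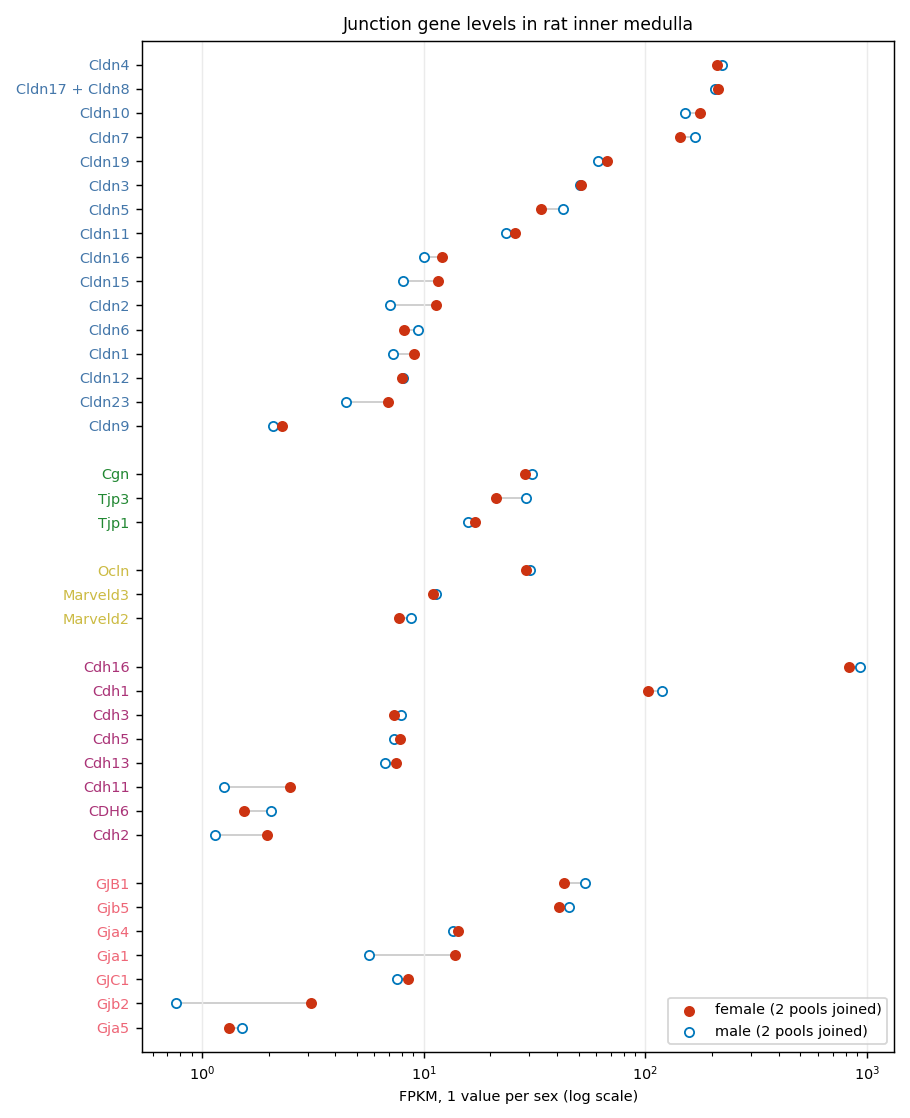
The level of 37 junction loci of mean FPKM of at least 1 is plotted in FPKM on a log scale, with 1 filled point for females and 1 open point for males, each from 2 pools joined by the authors. The widest gaps are those of Gjb2 (3.11 FPKM in females, 0.769 FPKM in males) and Gja1 (13.9 FPKM in females, 5.65 FPKM in males), while most points of a gene nearly coincide.

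Among cadherins, Cdh11 was the called member. Cdh11, or OB-cadherin, is a cadherin of mesenchymal cells such as fibroblasts. Its locus (chromosome 19, 2374107 to 2531571, rn5) was at 2.49 FPKM in females and 1.26 FPKM in males. That is a fold of 1.98; the authors' deposited table gave q = 0.00391, and with a pseudocount of 1 FPKM its log2 ratio was 0.63 in place of 0.98. Cdh2, or N-cadherin, of mesenchymal cells, neurons and proximal tubule, was at 1.98 FPKM in females and 1.14 FPKM in males and was not called (the authors' deposited table gave p = 0.0032 and q = 0.0973).

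The epithelial cadherins were far more abundant and were not called. Cdh16, or Ksp-cadherin, a kidney-specific cadherin of tubule epithelium, was at 829 FPKM in females and 930 FPKM in males (the authors' deposited table gave q = 0.999). It made up 86.1% of the summed cadherin level in females and 86.4% in males. Cdh1, or E-cadherin, was at 103 FPKM in females and 119 FPKM in males; the authors' deposited table gave q = 0.881. The level of Cdh1 was thus 52.2 times that of Cdh2 in females and 104 times in males. Cdh3, or P-cadherin, was at 7.37 FPKM in females and 7.88 FPKM in males. Cdh13, or T-cadherin, which is anchored to the membrane by a lipid, was at 7.49 FPKM in females and 6.71 FPKM in males. Cdh5, or VE-cadherin, of endothelium, was at 7.80 FPKM in females and 7.37 FPKM in males. CDH6, or K-cadherin, was at 1.56 FPKM in females and 2.04 FPKM in males; the authors' deposited table gave p = 0.0557 and q = 0.539.

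No claudin was called among 17 tested loci, and 2 were at an unadjusted p under 0.05 in the authors' deposited table, Cldn2 and Cldn23. The backgrounds over all tested loci were 2.34% called and 9.77% at that p, so such counts do not set 17 loci apart. Cldn2, the pore for sodium and water of the leaky proximal tubule, was at 11.4 FPKM in females and 7.05 FPKM in males, 1.62-fold apart. Its q of 0.0502 in the authors' deposited table lies just above the threshold. Readjusted over the loci that reach a mean of 1 FPKM the q was 0.0485, and over those that reach 5 FPKM it was 0.0508. Cldn2 shares its interval with Morc4, a locus at 1.63 FPKM in females and 1.10 FPKM in males. It is also the 1 member of 70 listed on another chromosome than in the RefSeq gene table, so its deposited position (chromosome 3, 53403187 to 53472574, rn5) is in doubt. Cldn23 was at 6.91 FPKM in females and 4.45 FPKM in males; the authors' deposited table gave p = 0.0105 and q = 0.216.

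Claudins of the collecting duct led the family in both sexes. The locus shared by Cldn8 and Cldn17 was at 212 FPKM in females and 206 FPKM in males; reads of the pair were not separated, and Cldn8 is the one known from the collecting duct. Cldn4, which forms the paracellular chloride pathway there together with Cldn8, was at 210 FPKM in females and 222 FPKM in males. Cldn7, found along the lateral membrane of distal tubule and collecting duct cells, was at 143 FPKM in females and 167 FPKM in males. Cldn3, a sealing claudin of the same segments, was at 51.5 FPKM in females and 50.5 FPKM in males. Its interval of 297 kb is listed for 11 more loci. Among these 4 loci the q-values in the authors' deposited table ran from 0.840 for Cldn7 to 0.999.

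Claudins of the loop of Henle were also present. Cldn10, a cation pore of the thick limb in one of its splice forms and an anion pore of the proximal tubule in another, was at 177 FPKM in females and 151 FPKM in males (the authors' deposited table gave q = 0.846). Cldn19 and Cldn16 together form the pathway for calcium and magnesium in the thick limb. Cldn19 was at 67.3 FPKM in females and 60.8 FPKM in males. Cldn16 was at 12.1 FPKM in females and 10.03 FPKM in males. The Cldn16 level was 0.179 of the Cldn19 level in females and 0.165 in males. Cldn10, the Cldn8 and Cldn17 locus, Cldn4 and Cldn7 made up 74.9% of the summed claudin level in females and 76.1% in males. That sum was 991 FPKM in females and 982 FPKM in males.

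The other claudins showed no call either. Cldn5, the claudin of endothelium, was at 33.8 FPKM in females and 42.7 FPKM in males (the authors' deposited table gave q = 0.720). Cldn11, known from myelin and from the Sertoli cell barrier, was at 25.9 FPKM in females and 23.5 FPKM in males. Cldn15, a cation pore of the gut, was at 11.6 FPKM in females and 8.09 FPKM in males (the authors' deposited table gave p = 0.0704 and q = 0.602). Cldn1, which seals the epidermis, was at 9.03 FPKM in females and 7.28 FPKM in males. Cldn6, a claudin of early epithelia, was at 8.18 FPKM in females and 9.39 FPKM in males. Its neighbour Cldn9 was at 2.30 FPKM in females and 2.09 FPKM in males. Cldn12, which lacks the binding motif for the scaffolds, was at 7.996 FPKM in females and 8.07 FPKM in males. Among the claudin loci of mean FPKM of at least 1, levels thus spanned from Cldn9 to the Cldn8 and Cldn17 locus in females, and from Cldn9 to Cldn4 in males.

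The proteins that anchor and frame the tight junction had log2 ratios from -0.44 to 0.10, with no call and none of these 7 at an unadjusted p under 0.05 in the authors' deposited table. Over all tested loci, 2.34% were called and 9.77% were at that p. Among the scaffolds, Cgn (cingulin), which ties the junction to actin and myosin, was at 28.5 FPKM in females and 30.9 FPKM in males. Tjp1 (ZO-1) was at 17.0 FPKM in females and 15.9 FPKM in males. Tjp3 (ZO-3) had the widest gap of the 7, at 21.3 FPKM in females and 28.9 FPKM in males; the authors' deposited table gave p = 0.0543 and q = 0.534. It shares its interval with Apba3, which was at 25.7 FPKM in females and 27.6 FPKM in males. Among the MARVEL proteins, Ocln (occludin) was at 28.9 FPKM in females and 30.03 FPKM in males. Marveld2 (tricellulin), which closes the points where cells meet in a corner, was at 7.73 FPKM in females and 8.82 FPKM in males. Marveld3 was at 11.1 FPKM in females and 11.4 FPKM in males.

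**Figure D3:**
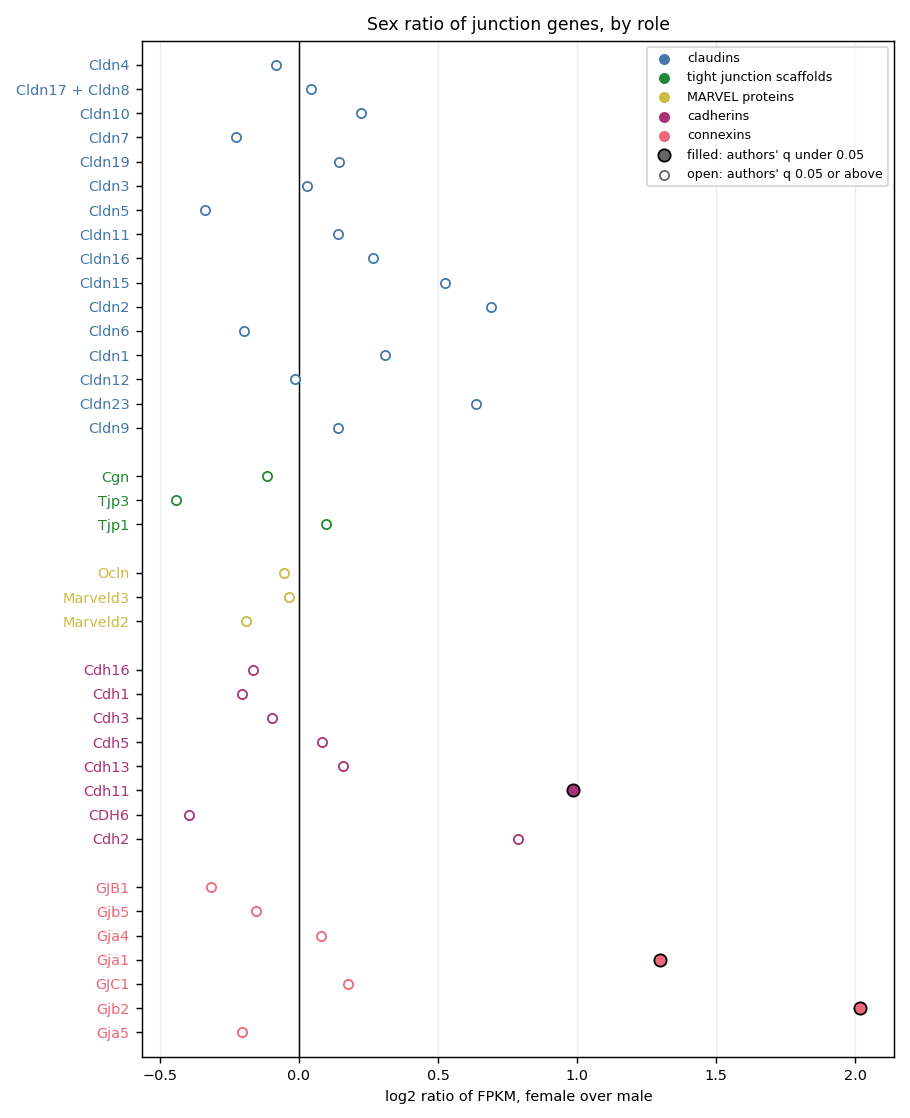
The log2 ratio of FPKM, female over male, is shown for 37 junction loci of mean FPKM of at least 1, grouped by role; filled points have q under 0.05 in the authors' deposited table and open points do not. Filled points are Cdh11 (0.98), Gja1 (1.30) and Gjb2 (2.02), and the 34 open points run from -0.44 (Tjp3) to 0.79 (Cdh2).

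Over the 37 uncalled loci at this level, 27 were within 1.2-fold between the sexes and 34 within 1.5-fold. A further 5 tested loci had a mean under 1 FPKM, among them Cdh24, CDH8, Gjb6 and the locus of Cldn22 and Cldn24. The remaining 23 members were not tested by the authors. Of these, 9 were listed at 0 in females and in males and 14 had a value in at least 1 sex, the highest being 0.192 FPKM for Cdh17 in females. The untested members were 13 cadherins, many of them known from the nervous system, 7 connexins and 3 claudins. A value listed at 0 can be a failed estimate, so these genes are reported as listed at 0 and not as absent.

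Levels in whole tissue mix cell types, and more RNA per cell cannot be told apart from more cells of a type. A marker of the labelled tissue was present in both sexes. Aqp2, the water channel of the collecting duct, was at 8463 FPKM in females and 11693 FPKM in males. Umod marks the thick limb, a segment of the neighbouring zone and not of the labelled tissue. It was at 830 FPKM in females and 904 FPKM in males. Junction genes that mark collecting duct and tubule epithelium (Cdh1, Cdh16, Cldn4, and Cldn8 with Cldn17) had log2 ratios from -0.21 to 0.04. Their summed level was 1354 FPKM in females and 1478 FPKM in males. None of the 10 collecting duct markers was called, with 3 at an unadjusted p under 0.05 in the authors' deposited table, and their median log2 ratio was -0.07. Over all tested loci, 2.34% were called and 9.77% were at that p. Of the 10, 5 were above 0 and 5 below. Their summed level was 14964.5 FPKM in females and 20346.8 FPKM in males, most of it Aqp2 and Fxyd4. Of the 3, Fxyd4 was lower in females, at 4006 FPKM against 5915 FPKM in males, and Hsd11b2 and Scnn1g were higher.

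Beside Gja1 and Cdh11, 5 of 7 markers of interstitial fibroblasts were called in the authors' deposited table, all higher in females, and their summed level was 137 FPKM in females and 84.9 FPKM in males. Pdgfra, a receptor that defines these cells, was at 14.8 FPKM in females and 6.17 FPKM in males, 2.40-fold apart (the authors' deposited table gave q = 0.00391). Of 6 tested smooth muscle and pericyte markers 1 was called, Pdgfrb, at 10.7 FPKM in females and 5.58 FPKM in males. The list's sum was 79.2 FPKM in females and 51.8 FPKM in males. Beside Gjb2, 3 of 7 tested markers of the papillary urothelium were called, all higher in females, with a sum of 39.6 FPKM in females and 20.2 FPKM in males. Krt5 of its basal cells was at 2.93 FPKM in females and 0.949 FPKM in males. Over markers averaging 1 FPKM or more, median log2 ratios were 1.12 for the urothelium, 1.25 for fibroblasts and 1.14 for proximal tubule. The background of calls over all tested loci was 2.34%. The part of these cell types in the levels of Gja1, Gjb2 and Cdh11 was not tested.

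Beside Cldn2 and Cdh2, 9 of 13 tested proximal tubule markers were called in the authors' deposited table, all higher in females. The median log2 ratio was 1.14 over those averaging 1 FPKM or more. Their sum was 1090 FPKM in females and 233 FPKM in males, of which Kap alone was 910 FPKM in females and 131 FPKM in males. Not called among the tested markers were Miox, Pck1, Slc5a1 and Slc6a19. Miox was at 21.1 FPKM in females and 20.3 FPKM in males, and Pck1 at 3.94 FPKM in females and 4.01 FPKM in males. Slc5a1 was at 0.905 FPKM in females and 0.249 FPKM in males. Slc6a19 was at 0.305 FPKM in females and 0.399 FPKM in males. Of 7 tested thin limb markers 1 was called, higher in females, and the median log2 ratio of that list was 0.12. Its sum was 4493 FPKM in females and 4509 FPKM in males. Most of that sum was Cryab, at 3296 FPKM in females and 3282 FPKM in males. The background of calls over all tested loci was 2.34%. The part of proximal tubule or thin limb in the values of Cldn2 and Cdh2 was not tested.

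Among junction genes of endothelium, Cdh5, Cldn5, Gja4 and Gja5 had log2 ratios from -0.34 to 0.08, with a sum of 57.3 FPKM in females and 65.1 FPKM in males, and none was called or at an unadjusted p under 0.05 in the authors' deposited table. Of the 11 endothelial markers outside the junction families, 9 had a log2 ratio above 0, and the median was 0.36. Called were Plvap, of fenestrated endothelium, at 240 FPKM in females and 122 FPKM in males, and, in the other direction, Vwf, at 7.62 FPKM in females and 11.2 FPKM in males. Over all tested loci, 2.34% were called and 9.77% were at an unadjusted p under 0.05. The difference between the junction genes and the endothelial markers was not tested.

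**Figure D4:**
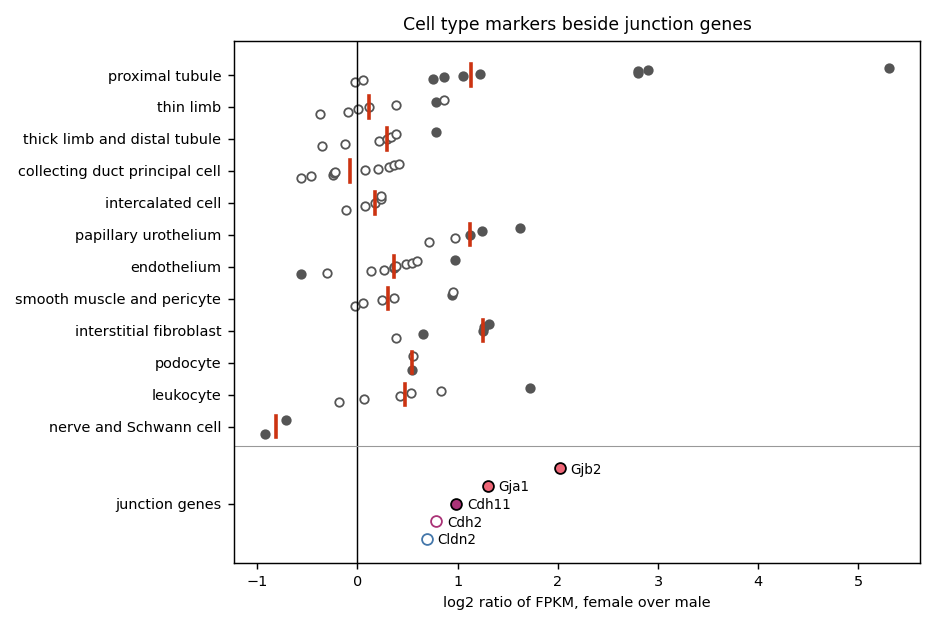
The log2 ratio of FPKM, female over male, is plotted for markers of mean FPKM of at least 1 of 12 cell types (filled, q under 0.05 in the authors' deposited table; open, 0.05 or above; bar, median of the list) and, below the line, for 5 junction genes. Medians are 1.25 for interstitial fibroblast, 1.14 for proximal tubule and 1.12 for papillary urothelium, against -0.07 for principal cells of the collecting duct; Gjb2, Gja1 and Cdh11 lie between 0.98 and 2.02.

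The partner proteins of these junctions gave no call. Of 84 names on a list of other junction genes 74 were found and 67 tested, and none had q under 0.05 in the authors' deposited table, the lowest q being 0.170, beside the background of 2.34% called over all tested loci. At an unadjusted p under 0.05 there were 10, 4 of them with a log2 ratio above 0 and 6 below, beside the background of 9.77%. The 61 averaging 1 FPKM or more had a median log2 ratio of -0.02, beside -0.02 over all tested loci at that level. The 10 most abundant are given here. F11r (JAM-A), an adhesion molecule of the tight junction, was at 209 FPKM in females and 279 FPKM in males. The authors' deposited table gave it p = 0.0249 and q = 0.358. F11r shares its interval with Pvrl4, which was at 2.91 FPKM in females and 2.01 FPKM in males. Pvrl2 (nectin-2), an adhesion molecule of the adherens junction, was at 71.5 FPKM in females and 92.1 FPKM in males; the authors' deposited table gave p = 0.0343 and q = 0.420. Lsr, which recruits tricellulin to cell corners, was at 74.1 FPKM in females and 87.1 FPKM in males. Among catenins, which link cadherins to actin, and their relatives, Ctnna1 was at 199 FPKM in females and 223 FPKM in males and Ctnnb1 at 143 FPKM in females and 145 FPKM in males. Jup (plakoglobin) was at 72.2 FPKM in females and 64.9 FPKM in males. Ctnnal1, a relative of the alpha-catenins, was at 71.4 FPKM in females and 95.6 FPKM in males; the authors' deposited table gave p = 0.0125 and q = 0.241. Cgnl1 (paracingulin) was at 117 FPKM in females and 105 FPKM in males, and Ybx3, a partner of ZO-1, at 80.3 FPKM in females and 83.2 FPKM in males. Perp of the desmosome was at 93.7 FPKM in females and 97.3 FPKM in males. The less abundant genes that follow were chosen after their values were seen. Jam3, an adhesion molecule, was at 7.90 FPKM in females and 5.24 FPKM in males. Its p was 0.0092 and its q 0.197 in the authors' deposited table. Clmp, of the same adhesion list, was at 0.766 FPKM in females and 0.307 FPKM in males. The authors' deposited table gave it p = 0.0079 and q = 0.177. Ctnnd2, of the delta-catenin family, was at 2.79 FPKM in females and 4.53 FPKM in males; the authors' deposited table gave p = 0.0267 and q = 0.374. Panx2, of the pannexin channels, had the lowest q of this list, at 5.62 FPKM in females and 8.52 FPKM in males.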

How the data were processed

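Total RNA of rat inner medulla was sequenced from both ends with a stranded kit, per the labels' protocols. Per the submitters' processing notes, build rn5 was used together with Cufflinks 2.2.1, StringTie, TopHat2 2.1.1, FastQC and cutadapt, with no role stated for any of them. Per the file headers, the authors joined the pools of a sex into 1 FPKM value per locus before deposit, in the layout of a Cuffdiff comparison. No header names the unit, which was read as FPKM from the values and the tools. The p-value and q-value are the authors' own. Their deposited log2 fold and test statistic (a score) run male over female, whereas a signed fold score in a second table runs female over male. Log2 ratios here were recomputed as female over male, with no pseudocount (largest gap to the deposited values 4.19e-05). Library sizes are counts of read pairs, and mapping rates (89.6 to 90.3 percent) were also deposited by the authors. No counting interval can be set on an FPKM.

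No test could be run per pool, so the authors' test is the error measure. A symbol was matched in any letter case and the row of highest level taken. Members tested at a mean of at least 1 FPKM are named, except a few not reported here by name; of the other junction genes the 10 most abundant are named, and any called. Panx2, Ctnnd2, Jam3, Clmp and the transcription factors of the closing section were named after their values were seen. Members and lists were chosen with earlier results of these data known. Sequences are from RefSeq, build GRCr8; 47 of 70 members had a promoter entry. Python 3.11.15 and pandas 2.3.3 were used, with the adjustment and motif search tested on simulated data. How strand was used in counting, and how libraries were scaled, is not given in the sources used here.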

Additional observations from a re-analysis of the deposited data

How the results depend on the processing

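No paired analysis was possible because the deposited table gives 1 value per sex; for the same reason no pool could be left out. Taking 0.1 as the q threshold in the authors' deposited table, 5 members were called, Cdh2 and Cldn2 being added. Adjusted again over the loci averaging 5 FPKM or more, 1 remained, Gja1, since Gjb2 and Cdh11 lie under that level and were not tested there. Over loci of at least 1 FPKM, or over loci with a symbol, 4 were called, Cldn2 being added. At q under 0.01, or with joined rows left out, the same 3 genes were called. The median log2 ratio, 0.0593 over the members of mean FPKM of at least 1, was 0.0355 over those of at least 5, 0.0755 with no filter on low values, and 0.0745 relative to the median of all tested loci. Of 40 named loci, Cldn12 alone changed sign, to 0.0015, relative to that median. The other junction genes had 0 calls under each of the thresholds and filters tried. Low values limit the size of the ratios: with a pseudocount of 1 FPKM that of Gjb2 was 1.22 in log2, that of Cdh11 0.63 and that of Cdh2 0.47.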

Other observations

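Transcription factors that set epithelial junction gene expression were in the same table. Of 10 such genes tested, none had q under 0.05 in the authors' deposited table, and Zeb1 and Grhl3 were at an unadjusted p under 0.05. The backgrounds over all tested loci were 2.34% and 9.77%. Of the 8 with mean FPKM of at least 1, 7 were above 0 in log2 ratio of female to male, with a median of 0.35. Zeb1, a repressor of E-cadherin, was at 1.87 FPKM in females and 1.14 FPKM in males (p = 0.0151, q = 0.268 in the authors' deposited table). Zeb2, of the same family, was at 3.57 FPKM in females and 2.30 FPKM in males, and Snai1 at 2.53 FPKM in females and 1.90 FPKM in males. Grhl3 was at 1.64 FPKM in females and 0.820 FPKM in males (p = 0.01, q = 0.210 in the authors' deposited table). Grhl2, an activator of E-cadherin and of claudins, was at 12.4 FPKM in females and 12.02 FPKM in males, and Ovol1 at 11.9 FPKM in females and 10.8 FPKM in males. Twist1 was the gene of these 8 below 0, at 10.2 FPKM in females and 11.2 FPKM in males.

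The interval of Cdh1 is listed for one more locus, without a symbol and not tested by the authors, that was listed at 0 in females and at 23.8 FPKM in males. As a value listed at 0 can be a failed estimate, this is not read as a difference between the sexes.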
